A study of Homo sapiens with 24 samples.

Results

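The genes described here encode the proteolytic machinery of the cell surface and its inhibitors: the plasminogen activators PLAU and PLAT, the urokinase receptor PLAUR, the serpin SERPINE2, the matrix metalloproteases MMP14 and MMP2, and the metalloprotease inhibitors TIMP1, TIMP2 and TIMP3. The 9 genes were taken by their symbols from 3 gene tables that together held 14388 named genes. All 9 were listed in the tables of the Tet-One and Tet-MIST1 lines, and 8 of the 9 in the table of the Tet-PTF1a line, where PLAT had no entry.

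PolyA RNA was sequenced from Panc-1, an established human pancreatic ductal adenocarcinoma (PDAC) cell line, after transfection with a doxycycline (Dox)-inducible plasmid. The study asked how PDAC cells respond when acinar transcription factors are switched back on. Tet-One cells carried the empty plasmid (passage 32), Tet-MIST1 cells carried myc-tagged rat MIST1 (passage 33) and Tet-PTF1a cells carried myc-tagged mouse PTF1a (passage 32). Each line was grown for 72 h without Dox (Control) or with 1 µg/ml Dox, in 4 libraries per group and 24 libraries in all. All cells, the Controls included, were stable transformants selected in puromycin, and the methods describe the lines as screened clones, so that differences between lines include differences between clones. The libraries of a group are called biological replicates in the methods, while the labels do not say that they came from separate cultures, so that p-values measure only the spread between these libraries.

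Urokinase (PLAU) and tissue plasminogen activator (PLAT) are serine proteases that cleave plasminogen to plasmin, which degrades fibrin and other matrix proteins. Urokinase acts largely while bound to its membrane receptor PLAUR, and serpins such as SERPINE2 (protease nexin-1) trap the activators. MMP14 is a membrane-anchored collagenase that, in a complex with TIMP2, activates the secreted gelatinase MMP2, and the TIMPs block the active sites of these enzymes. Pancreatic tumors are known for a dense matrix and for high urokinase and metalloprotease activity.

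Total counts per library ranged from 17210989 to 43018494. In the Tet-PTF1a table, PTF1A had 0 to 2 counts in the Control libraries and 53 to 168 in the Dox libraries. The transgene is the mouse gene and reads were aligned to the human genome, so these counts do not measure its level. Reads of the transgene and of human PTF1A cannot be told apart in them. BHLHA15, the human gene of MIST1, had no entry in the Tet-MIST1 table, so that the induction of the rat transgene could not be checked there. All 7 markers of a pancreatic ductal carcinoma line (EPCAM, KRT7, KRT8, KRT18, KRT19, SOX9 and VIM) were listed in each line. None of 3 endothelial markers was listed, and of 4 leukocyte markers only CD68. Of 6 fibroblast markers, LUM, DCN and PDGFRA had no entry in any table. Those with an entry, COL1A1, PDGFRB and in Tet-PTF1a COL3A1, had a summed level of 155.5 to 163.5 CPM (the deposited counts scaled to library size) in Tet-PTF1a Control and 80.3 to 83.2 CPM in Tet-PTF1a Dox. In bulk RNA, fewer cells that express a gene and less RNA per cell cannot be told apart. Tet-One Dox replicate 1 stood apart from the other 3 libraries of its group, and the values of the members that it moved most are also given without it.

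In hg19 coordinates, PLAU lay at chr10:75670862-75677258 on the plus strand with 11 merged exons, MMP2 at chr16:55512742-55540603 on the plus strand with 17, MMP14 at chr14:23305742-23316808 on the plus strand with 10, and TIMP3 at chr22:33196802-33259028 on the plus strand with 5. TIMP1 lay at chrX:47441690-47446190 on the plus strand with 6 merged exons, TIMP2 at chr17:76849059-76921472 on the minus strand with 5, PLAUR at chr19:44150247-44174498 on the minus strand with 8, and SERPINE2 at chr2:224839765-224904036 on the minus strand with 12. The counts cover all exons of a gene, untranslated ends included. The sources used here do not say whether strand was used in counting, so reads from overlapping antisense genes cannot be assigned with certainty. PLAU shares 770 exon bases, 28.6% of its exon length, with the antisense lncRNA C10orf55, and TIMP2 shares 367 bases (10.0%) with an antisense lncRNA. C10orf55 itself had at most 152 counts in any group's libraries, against at least 3111 for PLAU. TIMP1 lies within SYN1, and TIMP3 within SYN3, on the opposite strand with no shared exon base.

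The RefSeq promoters of the members that responded to PTF1a are printed here because PTF1a and MIST1 are basic helix-loop-helix factors, which bind the E box CANNTG. The RefSeq promoter table used here (GRCh38.p14) gave the 250 bases before the transcript start for 6 of the 9 genes, PLAU and SERPINE2 with more than 1 start. The promoters of PLAT, MMP2 and TIMP2 were not analysed here. Those of the 4 responding genes with an entry follow, 5′ to 3′, with E boxes in capitals.
PLAU, upstream start, chr10:73910360-73910609 (+ strand): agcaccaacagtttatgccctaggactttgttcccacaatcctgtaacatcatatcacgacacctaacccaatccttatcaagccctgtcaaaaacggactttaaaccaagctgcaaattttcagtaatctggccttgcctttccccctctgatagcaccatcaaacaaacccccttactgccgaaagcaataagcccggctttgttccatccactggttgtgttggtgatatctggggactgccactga
PLAU, downstream start, chr10:73910882-73911131 (+ strand): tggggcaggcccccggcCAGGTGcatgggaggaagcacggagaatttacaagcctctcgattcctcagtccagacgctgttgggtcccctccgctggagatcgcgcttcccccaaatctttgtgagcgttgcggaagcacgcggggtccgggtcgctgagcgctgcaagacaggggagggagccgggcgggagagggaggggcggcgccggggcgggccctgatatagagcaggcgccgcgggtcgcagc
MMP14, chr14:22836335-22836584 (+ strand): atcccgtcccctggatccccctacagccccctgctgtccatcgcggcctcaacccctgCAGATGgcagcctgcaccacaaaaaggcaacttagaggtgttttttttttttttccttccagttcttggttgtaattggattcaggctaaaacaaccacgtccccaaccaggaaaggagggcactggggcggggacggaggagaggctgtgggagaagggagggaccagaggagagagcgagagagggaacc
TIMP1, chrX:47582186-47582435 (+ strand): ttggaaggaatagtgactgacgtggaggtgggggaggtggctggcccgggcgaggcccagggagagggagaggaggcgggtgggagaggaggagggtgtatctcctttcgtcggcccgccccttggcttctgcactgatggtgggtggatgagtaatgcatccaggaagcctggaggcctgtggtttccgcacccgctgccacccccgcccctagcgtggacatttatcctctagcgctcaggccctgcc
TIMP3, chr22:32801455-32801704 (+ strand): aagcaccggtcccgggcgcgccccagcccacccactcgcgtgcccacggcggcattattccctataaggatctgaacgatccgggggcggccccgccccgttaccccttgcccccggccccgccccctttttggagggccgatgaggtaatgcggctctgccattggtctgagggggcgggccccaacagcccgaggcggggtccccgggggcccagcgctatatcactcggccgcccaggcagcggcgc
The downstream PLAU start had an E box beginning 233 bases before the start, and MMP14 had an E box 192 bases before it. No CANNTG was found in the 250 bases before the upstream PLAU start or in those of TIMP1 and TIMP3. Counting PLAUR and SERPINE2, 5 of the 8 starts, in 4 of the 6 genes, had an E box, as did 61.8% of all 35116 RefSeq promoters of the same length. The E box is its own reverse complement in form, so both strands were covered by the search. The form CAGCTG, which is a subset of the E boxes, was found in SERPINE2 alone of the 6, and in 14.0% of all promoters. The TC box TGGGAAA, which PTF1a complexes bind beside an E box, was found on neither strand in any of the 6 genes and in 6.88% of all promoters. The AP-1 site TGANTCA was found in PLAUR alone of the 6, and in 6.57% of all promoters. These matches describe letters in a window, and binding was not measured.

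Before Dox, the members spanned a wide range of levels. Levels of different genes were compared as CPM of the counted library total per kilobase of exon, here called the level per length. In Tet-One Control, PLAU had the highest level per length of the 9 genes (70.8 ± 2.30, SD, n = 4), followed by TIMP1 (48.9 ± 2.88) and MMP2 (46.9 ± 1.42). MMP14 (10.3 ± 0.819) and TIMP2 (9.37 ± 0.0853) came next, and PLAUR was at 1.16 ± 0.0945. SERPINE2 (0.277 ± 0.0669), PLAT (0.131 ± 0.0220) and TIMP3 (0.0238 ± 0.00400) were the lowest, the last with 4 to 6 counts per library. Of the activators, urokinase was thus far above the tissue activator in these cells.

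**Figure D1:**
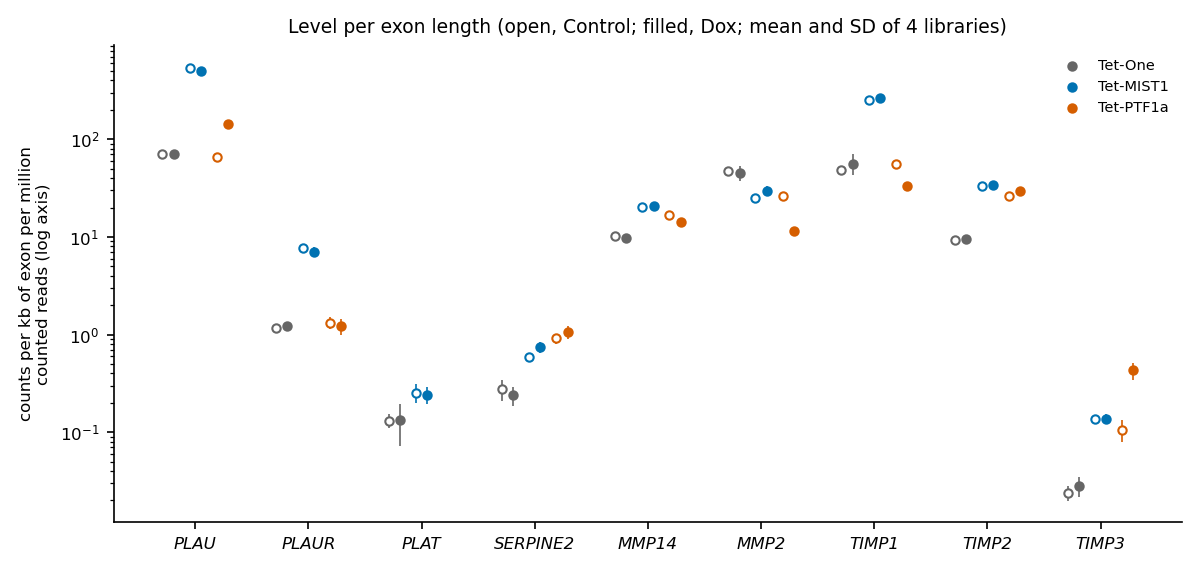
Mean level per exon length of the 9 genes in the 6 groups, in CPM of the counted library total per kilobase of exon on a log axis, with SD over 4 libraries (open, Control; filled, Dox). PLAU is the highest gene in every group, from 65.2 in Tet-PTF1a Control to 537 in Tet-MIST1 Control, and TIMP3 is the lowest in every group.

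With Dox in Tet-PTF1a, 6 of the 8 listed members changed, 3 upward and 3 downward. In 4 of them (PLAU, TIMP3, MMP2 and TIMP1) the response also differed from that to Dox alone. PLAU and TIMP3 rose, and TIMP2 rose slightly. MMP2 and TIMP1 fell and MMP14 fell slightly, while PLAUR and SERPINE2 did not pass the test. Across all 14053 genes tested in this line, 48.2% passed the same test (edgeR quasi-likelihood test, FDR under 0.05), 23.8% higher and 24.4% lower, so a called member is common by that background. Of the 8 listed members, these 6 had Dox libraries that did not overlap the Control libraries in deposited CPM. Over all genes 43.9% did not overlap, there by CPM of the counted library total. The 6 were picked by a test on the same libraries, so this is no separate support for them.

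PLAU, which makes urokinase, had 182, 174, 176 and 179 deposited CPM in the 4 Control libraries of Tet-PTF1a and 383, 380, 364 and 388 CPM in the 4 Dox libraries. Every Dox library was above every Control library, and the spread within each group was small. The means were 177.7 ± 3.45 CPM without and 378.7 ± 10.5 CPM with Dox (SD over 4 libraries), and the log2 fold change was 1.09 (SE 0.0234, edgeR FDR 2.39e-38) or 2.13-fold (95% interval 2.06 to 2.20). By absolute log2 fold change PLAU ranked 434 of the 14053 genes tested. C10orf55, antisense to PLAU, had 15 to 46 counts in Control and 23 to 44 in Dox libraries, with a log2 fold change of 0.40 (FDR 0.0839).

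PLAUR, the membrane anchor of urokinase, had 2.38, 2.91, 2.33 and 3.10 CPM in Control and 2.87, 1.93, 2.16 and 2.68 CPM in Dox libraries of Tet-PTF1a. The groups overlapped, and the log2 fold change was -0.14 (95% interval -0.43 to 0.14, FDR 0.427). The receptor was counted at 41 to 118 reads per library, so a change within that interval was not detectable at this depth. As PLAU rose, the ratio of PLAU to PLAUR levels per length went from 50.4 ± 7.39 to 120.2 ± 20.9. PLAT, the other activator, had no entry in this table.

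SERPINE2, a serpin that inhibits urokinase, tissue activator and thrombin, had 2.97, 2.46, 3.23 and 2.60 CPM in Control and 2.76, 3.02, 3.04 and 3.87 CPM in Dox libraries. Only Dox replicate 4 was above all Controls. The log2 fold change of 0.21 (95% interval -0.05 to 0.47, FDR 0.181) did not pass the test.

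MMP2, the secreted gelatinase, fell most among the metalloproteases measured here as members. It had 111.0, 110.1, 106.5 and 109.1 CPM in Control and 45.0, 49.2, 46.6 and 47.6 CPM in Dox libraries of Tet-PTF1a. The groups were far apart relative to their spread, with means of 109.2 ± 1.92 and 47.1 ± 1.78 CPM. The log2 fold change was -1.21 (SE 0.0319, FDR 1.54e-34), so that the Control level was 2.31 times the Dox level.

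MMP14, the membrane protease that activates MMP2, had 62.2, 59.4, 62.9 and 58.0 CPM in Control and 50.2, 49.1, 49.2 and 54.2 CPM in Dox libraries. All 4 Dox libraries were below all 4 Controls, but the shift was small. The log2 fold change was -0.25 (SE 0.0368, FDR 1.13e-07).

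The 3 TIMP genes each moved differently. TIMP1 had 51.6, 47.6, 53.7 and 52.7 CPM in Control and 30.7, 27.8, 32.7 and 29.4 CPM in Dox libraries, a log2 fold change of -0.78 (SE 0.0434, FDR 1.77e-20). The Dox libraries lay below the Controls without overlap. TIMP2, which both inhibits MMP2 and takes part in its activation by MMP14, had 96.2, 98.3, 97.0 and 95.5 CPM in Control and 104.3, 109.7, 102.2 and 111.4 CPM in Dox libraries. Its log2 fold change was 0.15 (SE 0.0293, FDR 2.88e-05), and it was no longer called when the spread was estimated over all 24 libraries (FDR 0.0505). TIMP3, the inhibitor that stays bound to the extracellular matrix, had 23, 8, 16 and 21 counts in Control and 35, 61, 49 and 62 counts in Dox libraries. In CPM it went from 0.584 ± 0.148 to 2.32 ± 0.459, a log2 fold change of 1.99 (SE 0.205, FDR 1.07e-11) or 3.96-fold (95% interval 2.98 to 5.27). TIMP3 thus had the largest fold change of the members and the smallest counts. Control replicate 2 was at 0.448 CPM, below the filter of more than 0.5 CPM in at least 4 libraries. TIMP3 therefore met that filter only with the help of Dox libraries, where it was high.

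**Figure D2:**
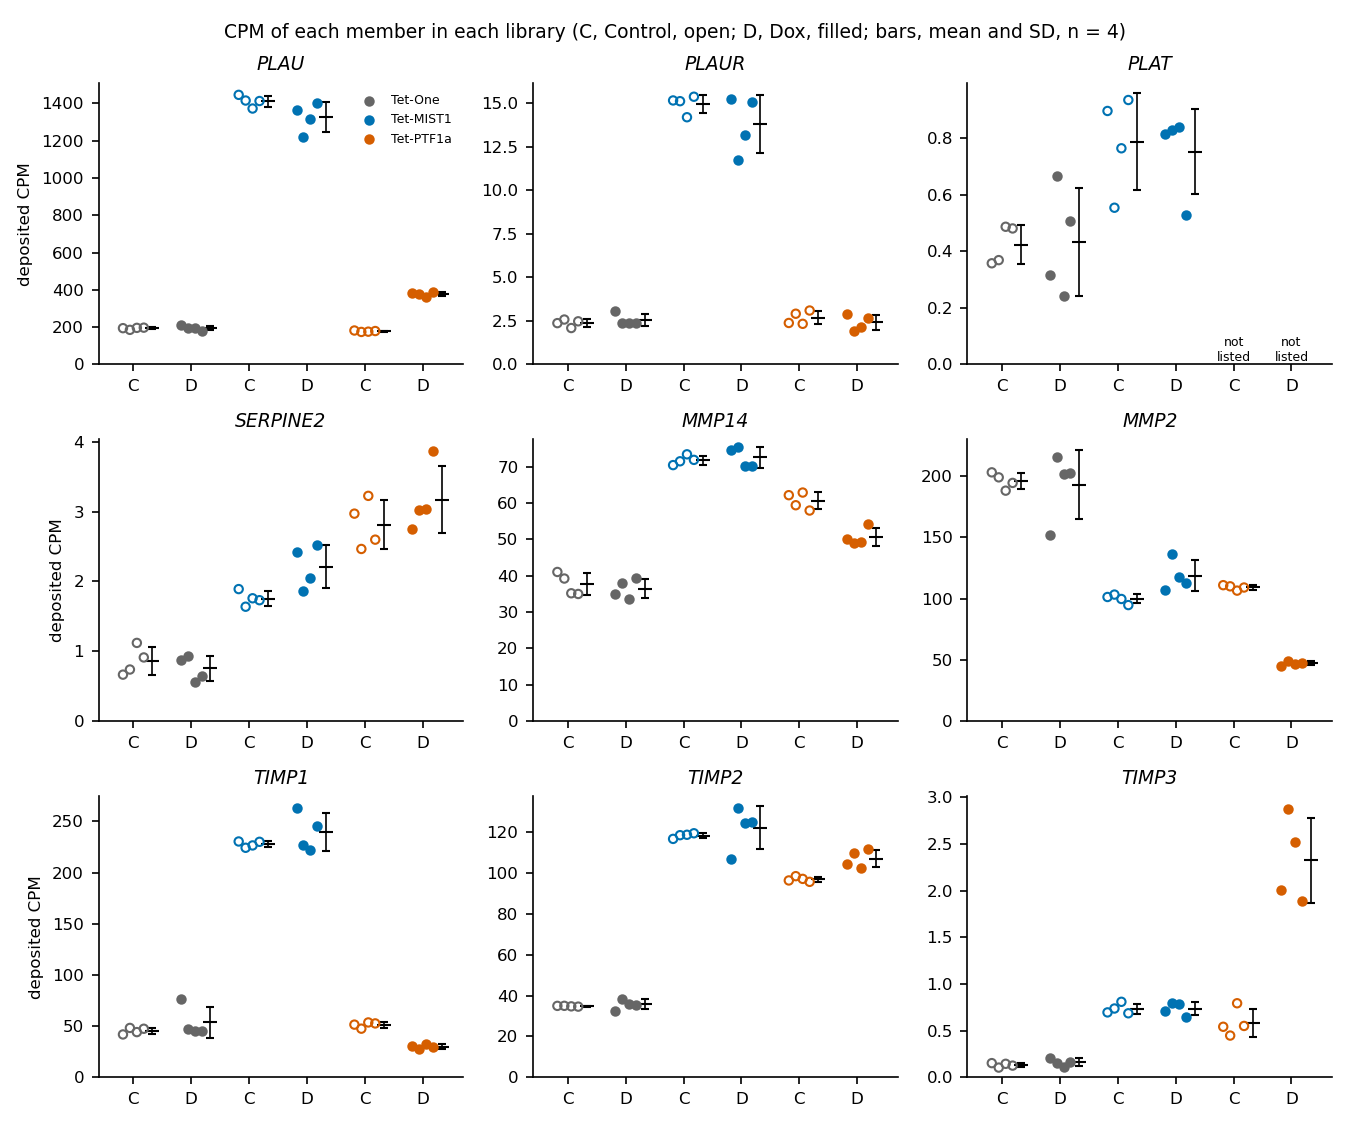
Deposited CPM of each gene in each library of the 6 groups (C, Control, open; D, Dox, filled), with mean and SD of 4 libraries beside them; each panel has its own axis from 0. In Tet-PTF1a the Control and Dox libraries are separate for PLAU, MMP14, MMP2, TIMP1, TIMP2 and TIMP3, and in Tet-One replicate 1 of Dox lies apart for TIMP1 at 76.9 CPM.

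Some markers of the culture moved together with the members. The summed level of the 7 line markers was 8108 to 8470 CPM in Tet-PTF1a Control and 5496 to 5634 CPM with Dox. The mean was lower with Dox for VIM, KRT8, KRT18, KRT19 and EPCAM, and higher for KRT7 (1.44 and 4.52 CPM) and SOX9 (251.5 and 309.8 CPM). COL1A1, a collagen of fibroblasts that was listed in every line, fell in Tet-PTF1a with Dox by 1.25 on the log2 scale (FDR 3.03e-37), while COL3A1 rose by 1.36 (FDR 3.25e-22). CD68 fell from 65.4 ± 2.87 to 33.3 ± 2.28 CPM. The part of these markers in the changes of the members was not tested.

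The fall of MMP2 and TIMP1 with a small rise of TIMP2 shifted the balance of transcripts in Tet-PTF1a. The rise of TIMP2 was not shown to differ from the response to Dox alone (interaction test, FDR 0.403). Per length, TIMP1 made up 67.8% ± 1.37 of the summed TIMP level in Tet-PTF1a Control and 52.5% ± 2.63 with Dox, and TIMP2 went from 32.0% ± 1.39 to 46.8% ± 2.59. TIMP3 stayed a small component at 0.128% ± 0.0288 and 0.678% ± 0.142. The Control and Dox ranges of each of these shares were separate.

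Among the enzymes, the ratio of MMP2 to MMP14 levels per length went from 1.57 ± 0.0729 to 0.812 ± 0.0485, so that MMP14 passed MMP2. The ratio of TIMP2 to MMP2 went from 1.00 ± 0.0218 to 2.56 ± 0.0786. The ratio of TIMP2 to MMP14 went from 1.57 ± 0.0609 to 2.08 ± 0.0805. The summed TIMPs over the summed MMP2 and MMP14 went from 1.91 ± 0.0714 to 2.45 ± 0.0989. In Tet-MIST1 the same ratio of sums went from 6.37 ± 0.189 to 6.06 ± 0.678 with overlapping libraries, while TIMP2 to MMP2 went from 1.34 ± 0.0594 to 1.16 ± 0.0710 with separate ranges. In Tet-One the ratio of sums was 1.02 ± 0.0743 in Control and 1.25 ± 0.498 in Dox, where 1 library reached 1.99. These are ratios of transcripts, and protein or activity was not measured.

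**Figure D3:**
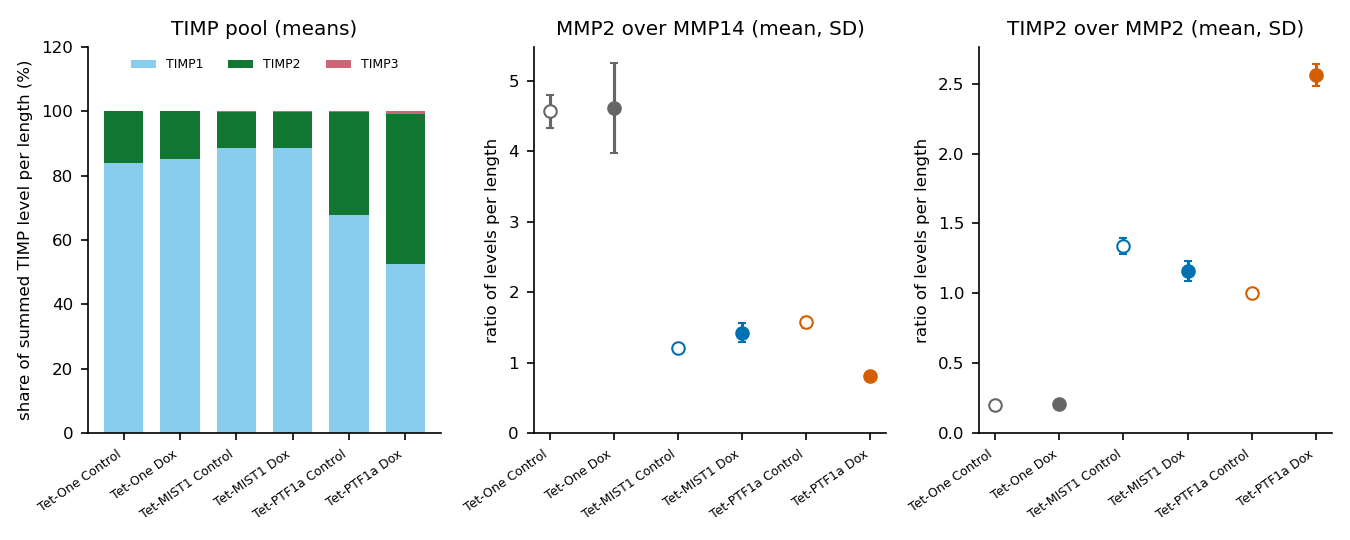
Left, mean share of each TIMP in the summed TIMP level per exon length, in percent, for the 6 groups; middle and right, the ratios of MMP2 to MMP14 and of TIMP2 to MMP2 levels per length, mean and SD of 4 libraries. With PTF1a the share of TIMP1 goes from 67.8% to 52.5%, the ratio of MMP2 to MMP14 from 1.57 to 0.812 and that of TIMP2 to MMP2 from 1.00 to 2.56.

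MIST1 induction left most members near their Control level. MMP2 was the only member of 9 to pass the test, where 20.6% of 13623 genes did (11.9% higher and 8.77% lower). MMP2 had 101.3, 103.3, 99.7 and 94.7 CPM in Control and 107.4, 136.5, 117.6 and 112.8 CPM in Dox libraries of Tet-MIST1. All Dox libraries were above all Controls, with replicate 2 the highest. Of all genes, 26.6% had Dox and Control libraries that did not overlap, in either direction, by CPM of the counted library total. The log2 fold change was 0.26 (SE 0.0672, FDR 0.0198). The call was lost when Control replicate 1, 3 or 4 was left out (FDR 0.0501, 0.0571 and 0.0586).

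SERPINE2 had 1.89, 1.64, 1.76 and 1.73 CPM in Tet-MIST1 Control and 2.41, 1.86, 2.04 and 2.52 CPM with Dox. Of the Dox libraries 3 were above all Controls, and the log2 fold change of 0.34 (95% interval 0.08 to 0.61) missed the limit at an FDR of 0.0661. It passed without Dox replicate 2 (FDR 0.0234). PLAU had 1373 to 1446 CPM in Control and 1219 to 1400 CPM in Dox libraries, a log2 fold change of -0.08 (95% interval -0.19 to 0.03, FDR 0.277).

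The remaining members in Tet-MIST1 had log2 fold changes from -0.11 (PLAUR, FDR 0.368) to 0.08 (TIMP1, FDR 0.301), and their groups overlapped. MMP14 was at 71.8 ± 1.23 CPM in Control and 72.6 ± 2.78 CPM in Dox, and TIMP2 at 118.1 ± 1.17 and 121.9 ± 10.6 CPM. TIMP2 passed the test when Dox replicate 1, its lowest library at 106.9 CPM, was left out (FDR 0.0367). PLAT had 24 to 36 counts in Control and 18 to 33 counts in Dox libraries, and TIMP3 25 to 35 and 22 to 31 counts, so that only large changes were detectable for PLAT (95% interval -0.48 to 0.41) and TIMP3 (95% interval -0.30 to 0.34). PLAT lies on the minus strand of chromosome 8 at 42032236 to 42065194 (hg19), with 14 merged exons. TIMP1 had 230.4, 224.3, 226.6 and 230.1 CPM in Control and 263.1, 227.2, 222.4 and 245.2 CPM in Dox libraries. The 4 Dox libraries of TIMP1 lay on both sides of the Controls, with a wider spread.

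Dox alone, in cells with the empty plasmid, called none of the 7 members tested. PLAT, at 9 to 25 counts, and TIMP3, at 4 to 8 counts, were below the limit for testing. None of the 13428 genes tested was called by edgeR (0%) or by DESeq2, and 401 had an unadjusted p under 0.05. No member had separate Dox and Control libraries in deposited CPM, and 2.46% of all genes had them by CPM of the counted library total. The log2 fold changes of the members lay between -0.18 (SERPINE2, 95% interval -0.70 to 0.33) and 0.24 (TIMP1, 95% interval -0.15 to 0.64).

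The upper end of that range depended on a single library. TIMP1 had 42.0, 48.3, 44.3 and 47.5 CPM in Tet-One Control and 76.9, 47.4, 45.2 and 45.6 CPM with Dox, the value of 76.9 being replicate 1. The same library had the lowest MMP2 value of its group, 151.8 CPM against 201.9 to 216.0 CPM in the others. Without it the log2 fold change was 0.02 for TIMP1 (FDR 0.930), 0.08 for MMP2 (FDR 0.476) and -0.27 for SERPINE2 (FDR 0.680). PLAU was at 193.3 ± 5.34 CPM in Control and 195.9 ± 11.7 CPM in Dox.

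**Figure D4:**
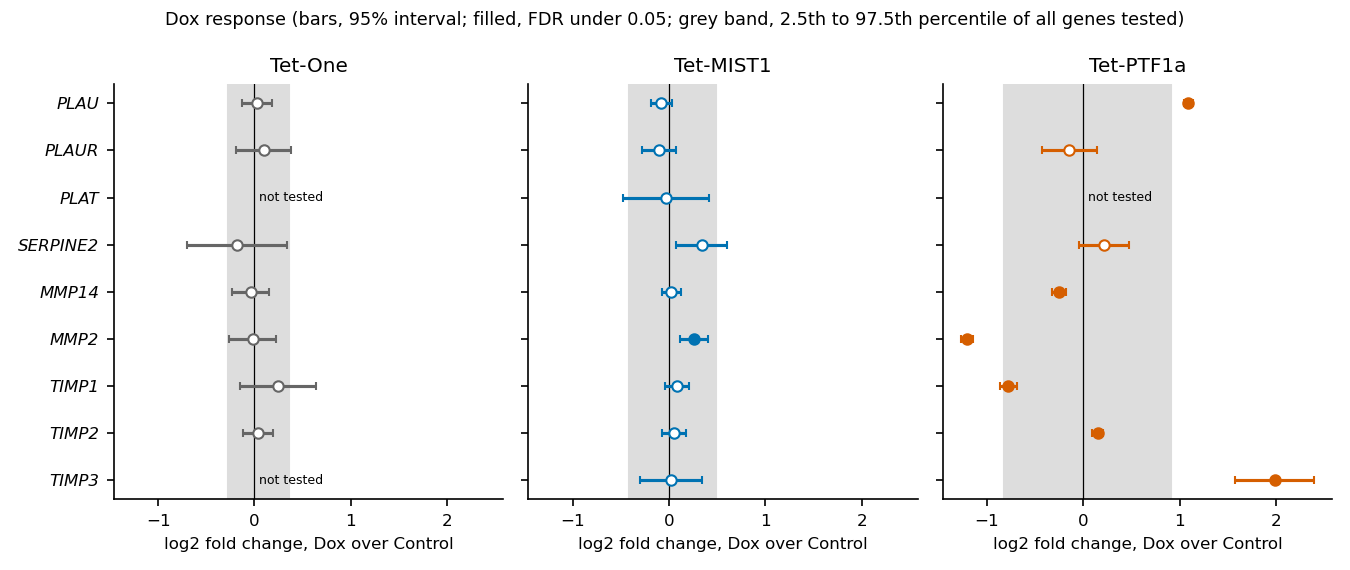
Log2 fold change of Dox over Control for each gene in each line, with 95% interval (filled, FDR under 0.05; grey band, the central 95% of all genes tested in that line). In Tet-PTF1a, PLAU (1.09), TIMP3 (1.99) and MMP2 (-1.21) lie outside the band, which runs from -0.82 to 0.91, while TIMP1, MMP14 and TIMP2 lie inside it.

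An interaction term compared the response to PTF1a with that to Dox alone. Of the 8 members tested, 4 differed, where 12.9% of 13506 genes did (5.52% higher and 7.34% lower). PLAU (difference in log2 fold change 1.07, SE 0.0690, FDR 3.28e-08) and TIMP3 (1.71, SE 0.410, FDR 0.0103) responded more positively in Tet-PTF1a. MMP2 (-1.19, SE 0.116, FDR 3.49e-06) and TIMP1 (-1.02, SE 0.192, FDR 0.00190) responded more negatively. Without Tet-One Dox replicate 1, the differences were 1.11 for PLAU, 1.87 for TIMP3, -1.28 for MMP2 and -0.79 for TIMP1, all still called. MMP14 was at -0.22 (FDR 0.153) and was called without that library (-0.23, FDR 0.0372), in a fit that called 4146 of 13506 genes in place of 1738. TIMP2 was at 0.11 (95% interval -0.05 to 0.26, FDR 0.403) and stayed uncalled without Tet-One Dox replicate 1 (FDR 0.311). In this comparison the counts of TIMP3 in Tet-One were 4 to 8 per library, so it passed the filter only through libraries of Tet-PTF1a.

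The differences between the responses to PTF1a and MIST1 covered 5 of 8 members, where 36.4% of genes differed (17.8% higher and 18.6% lower). They were 1.18 for PLAU (FDR 1.36e-12), 1.98 for TIMP3 (FDR 3.45e-06), -1.46 for MMP2 (FDR 4.19e-12), -0.85 for TIMP1 (FDR 3.12e-08) and -0.27 for MMP14 (FDR 0.00134). For TIMP2 the difference was 0.10 (95% interval -0.03 to 0.24), for SERPINE2 -0.12 (95% interval -0.50 to 0.25) and for PLAUR -0.03 (95% interval -0.39 to 0.34). The responses to MIST1 and to Dox alone differed for none of the 9 members, where 1.67% of 13861 genes did (1.49% higher and 0.188% lower), by edgeR, with or without Tet-One Dox replicate 1, or by DESeq2, and no member had an unadjusted p under 0.05 by edgeR over all 16 libraries. The nearest were SERPINE2 at 0.52 (95% interval -0.0039 to 1.05, FDR 0.447) and MMP2 at 0.27 (95% interval -0.01 to 0.56, FDR 0.468). Without Tet-One Dox replicate 1 they were 0.60 for SERPINE2 (FDR 0.121) and 0.17 for MMP2 (FDR 0.167). With the trend in gene length and GC content removed from each library, MMP2 passed (FDR 0.0196).

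The lines differed before any Dox was added, and for several members by more than Dox changed them. Tet-MIST1 Control differed from Tet-One Control in all 9 members, 8 higher and 1 lower, where 80.2% of 13807 genes differed (39.5% higher and 40.7% lower). PLAU was 7.27-fold higher (95% interval 6.91 to 7.65, FDR 1.95e-21) and PLAUR 6.26-fold higher (5.62 to 6.98, FDR 1.47e-16), so that activator and receptor were both high in this line. TIMP3 was 5.40-fold, TIMP1 4.98-fold and TIMP2 3.38-fold higher, SERPINE2 2.02-fold, MMP14 1.90-fold and PLAT 1.82-fold higher. MMP2 went the other way, at -0.98 on the log2 scale (SE 0.0372, FDR 1.09e-14). In Tet-One Control, PLAT was at 0.357 to 0.486 CPM and TIMP3 at 0.105 to 0.153 CPM. Both passed the filter of more than 0.5 CPM in at least 4 libraries only through Tet-MIST1. They could therefore be tested only if higher in that line. When any 1 Tet-MIST1 Control library was left out they were not tested, and 7 members were called.

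In values per library, PLAU had 1446, 1416, 1373 and 1413 CPM in Tet-MIST1 Control against 194.5, 185.5, 196.1 and 197.2 CPM in Tet-One Control. PLAUR had 15.2, 15.1, 14.2 and 15.4 CPM against 2.37, 2.58, 2.09 and 2.48 CPM. No library of either line approached the other for these genes. MMP2 had 94.7 to 103.3 CPM in Tet-MIST1 Control and 188.3 to 203.3 CPM in Tet-One Control. The summed TIMPs over summed MMP2 and MMP14, per length, was 6.37 ± 0.189 in Tet-MIST1 Control and 1.02 ± 0.0743 in Tet-One Control.

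Tet-PTF1a Control differed from Tet-One Control in 5 of the 7 members tested, where 79.7% of 13429 genes did (39.5% higher and 40.1% lower). SERPINE2 was 3.08-fold, TIMP2 2.62-fold and MMP14 1.52-fold higher. MMP2 (-0.93, FDR 1.46e-13) and PLAU (-0.20, FDR 9.12e-06) were lower. PLAUR differed by 0.09 (95% interval -0.17 to 0.35, FDR 0.490). TIMP1 differed by 0.10 (95% interval -0.01 to 0.20, FDR 0.0843) and was called without Tet-PTF1a Control replicate 2, Tet-One Control replicate 2 or Tet-One Control replicate 4 (FDR 0.0277, 0.0311 and 0.0419). It was also called when libraries were scaled by their size alone (0.18, FDR 0.00205). TIMP3 was below the limit for testing in this pair. Line, clone and library preparation cannot be told apart in either comparison with Tet-One, nor can passage in that of Tet-MIST1. Tet-PTF1a and Tet-One were both at passage 32.

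**Figure D5:**
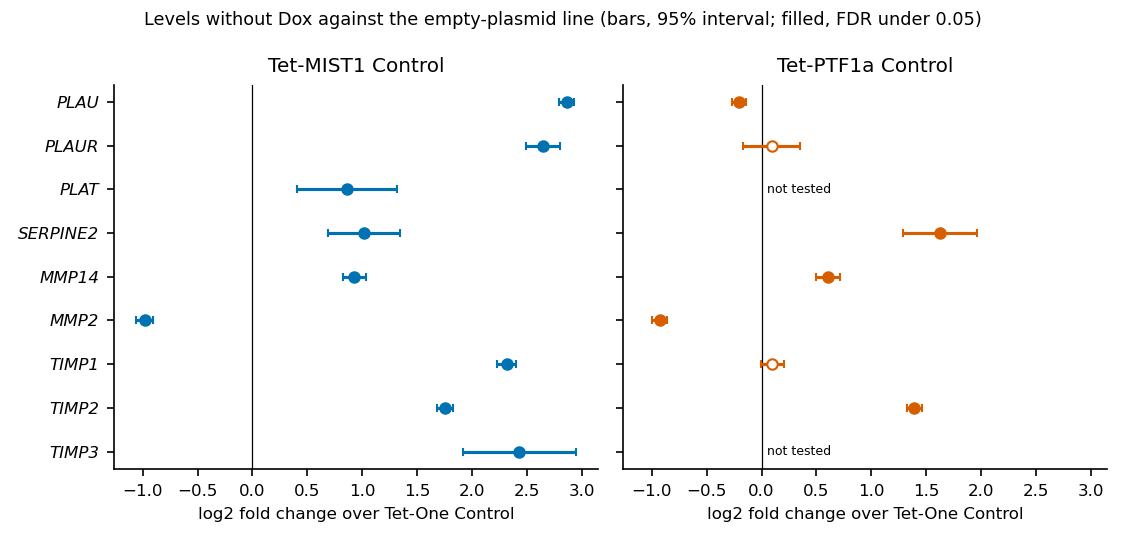
Log2 fold change of Tet-MIST1 Control (left) and Tet-PTF1a Control (right) over Tet-One Control for each gene, with 95% interval (filled, FDR under 0.05). In Tet-MIST1 every gene but MMP2 (-0.98) is higher, led by PLAU at 2.86, while in Tet-PTF1a SERPINE2 (1.63) and TIMP2 (1.39) are highest and MMP2 (-0.93) lowest.

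Ordered over the 6 groups in deposited CPM, PLAU ran from 1412 ± 30.1 in Tet-MIST1 Control and 1326 ± 78.9 in Tet-MIST1 Dox through 378.7 ± 10.5 in Tet-PTF1a Dox to 177.7 ± 3.45 in Tet-PTF1a Control. The groups of Tet-MIST1 overlapped, as did those of Tet-One at 193.3 and 195.9 CPM, and the other neighbours were apart. Even with PTF1a induced, PLAU stayed below its level in either Tet-MIST1 group. MMP2 ran from 196.3 ± 6.42 in Tet-One Control to 47.1 ± 1.78 in Tet-PTF1a Dox, which was separate from every other group. TIMP1 ran from 239.5 ± 18.6 in Tet-MIST1 Dox to 30.1 ± 2.07 in Tet-PTF1a Dox, and TIMP3 from 2.32 ± 0.459 in Tet-PTF1a Dox to 0.133 ± 0.0214 in Tet-One Control. SERPINE2 ran from 3.17 ± 0.483 in Tet-PTF1a Dox to 0.752 ± 0.175 in Tet-One Dox, with all neighbours overlapping except Tet-MIST1 Control (1.75 ± 0.104) and Tet-One Control (0.857 ± 0.202). MMP14 had the narrowest range of the members listed in all lines, 1.99 times between the highest and lowest mean, and TIMP3 the widest at 17.5 times. The Tet-PTF1a CPM were scaled by the authors separately from those of the other lines, so these orders across lines carry that difference in scale.

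Across the 24 libraries, each member but PLAT was set beside the 13506 genes listed in all 3 tables by Pearson's r of log2 CPM. PLAT, with no entry in Tet-PTF1a, was left out. The genes most like PLAU were TRIM16 (r = 0.993), SLC48A1 (0.988) and GALNT6 (0.987), and those most like PLAUR were LAYN (0.994), SQRDL and SLC20A1. MMP2 was most like CYP2S1 (0.984), AXL (0.978) and MEG3 (0.975), and TIMP1 most like WNT5B (0.994), COTL1 and SQSTM1. MMP14 was most like TXNIP (0.986), TIMP2 most like CALD1 (0.992), TIMP3 most like B3GNT5 (0.978) and SERPINE2 most like ERO1B (0.959). Among the members, PLAUR and TIMP1 had r = 0.972 and MMP2 and TIMP3 r = -0.951. These points share 3 lines that differ in most genes, so the values mainly describe the order of the 6 groups.

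Other genes of the pathway moved in Tet-PTF1a as well. Of 20 other plasminogen system genes 14 were tested and 12 called, 4 higher and 8 lower, where 48.2% of all genes were called, with a median log2 fold change of -0.10 against 0.00 over all genes. In 5 of the 14 the response differed from that to Dox alone (12.9% of all genes). S100A10, which with annexin A2 forms a plasminogen receptor, fell by 0.59 on the log2 scale (FDR 6.04e-28), and TFPI2, a Kunitz inhibitor that acts on plasmin, fell by 0.53 (FDR 3.67e-05). SERPINI1 (neuroserpin), an inhibitor of tissue plasminogen activator, was higher, at 14.45 ± 0.493 CPM in Control and 26.48 ± 0.507 CPM with Dox, without overlap. Plasminogen itself (PLG) had no entry in any table.

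Of 7 other MMPs tested in Tet-PTF1a, 3 were called, 1 higher and 2 lower, where 48.2% of all genes were called. In 3 of the 7 the response differed from that to Dox alone (12.9% of all genes). MMP15, a membrane-type metalloprotease like MMP14, rose from 9.44 ± 0.305 to 18.3 ± 1.35 CPM (log2 fold change 0.94, FDR 6.16e-18), and MMP28 fell by 1.08 on the log2 scale at under 1 CPM. MMP28 passed the filter only through the Control libraries, at 0.60 to 0.90 CPM, against 0.29 to 0.46 CPM with Dox. Of 19 ADAM and ADAMTS genes 11 were called, a share near the 48.2% of all genes. By direction, 9 of the 19 were higher and 2 lower, where 23.8% and 24.4% of all genes were. In 3 of 18 the response differed from that to Dox alone (12.9% of all genes). ADAMTS2, which removes the amino-terminal propeptide of procollagen, rose from 0.368 ± 0.0683 to 7.44 ± 0.503 CPM (log2 fold change 4.31, FDR 9.06e-29). Its Control libraries, at 0.280 to 0.447 CPM, were all below the filter of 0.5 CPM. It was therefore tested only because it was high with Dox. ADAMTS2 had no entry in Tet-One, so its response could not be compared with Dox alone. ADAMTS14, of the same subfamily, rose from 1.16 ± 0.371 to 3.67 ± 0.517 CPM (FDR 7.61e-11) and ADAM11 rose by 1.17 on the log2 scale (FDR 3.27e-22). Both other metalloprotease inhibitors tested, RECK (0.20, FDR 4.55e-04) and SPOCK1 (0.65, FDR 7.44e-05), were higher, but their differences from the response to Dox alone did not pass the test (FDR 0.184 and 0.0790).

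Of 9 activating enzymes and regulators tested in Tet-PTF1a, 7 were called, 2 higher and 5 lower, where 48.2% of all genes were called. In 3 of 8 the response differed from that to Dox alone (12.9% of all genes). PCSK5, a proprotein convertase, had 0.00 to 0.298 CPM in Control and 0.548 to 0.824 CPM in Dox libraries (FDR 2.51e-06). It passed the filter of 0.5 CPM only through the Dox libraries, where it was high. It also had no entry in Tet-One, so its response could not be compared with Dox alone. FURIN, the convertase best known for activating MMP14, was at 0.02 (FDR 0.612). CLDN1, a tight junction protein reported to promote MMP2 activation, fell by 0.62 (FDR 3.37e-13).

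In Tet-MIST1, 3 of 13 plasminogen system genes tested were called, 2 higher and 1 lower, a share near the 20.6% of all genes. SERPINI1 (neuroserpin), an inhibitor of tissue plasminogen activator, rose from 14.9 ± 0.824 to 32.8 ± 2.48 CPM (log2 fold change 1.15, FDR 6.27e-07) and differed from the response in Tet-One (1.17, FDR 3.39e-04). A rise of SERPINI1 was thus seen with Dox in both Tet-MIST1 and Tet-PTF1a. F12, a coagulation factor, rose by 0.33 on the log2 scale (FDR 0.0265), and in Tet-One its log2 fold change with Dox alone was 0.58 (FDR 0.897), and the difference of -0.26 between the responses did not pass the test (FDR 0.854). Of 9 other MMPs MMP28 alone was called (0.81, FDR 0.0197), at under 1 CPM, where 20.6% of all genes were called. MMP28 passed the filter only through the Dox libraries, at 0.55 to 0.89 CPM, against 0.39 to 0.49 CPM in Control. Of 17 ADAM and ADAMTS genes 7 were called, 1 higher (ADAM11, 0.69) and 6 lower, where 20.6% of all genes were called, among them ADAM23 (-0.74), ADAMTS16 (-0.39), ADAMTS14 (-0.36) and ADAM19 (-0.33). Between the responses of Tet-MIST1 and Tet-One, 2 of 18 ADAM and ADAMTS genes differed, where 1.67% of all genes did. Of 8 activating enzymes and regulators 3 were called (20.6% of all genes), with CTSD at 0.23 and PCSK6 at -0.32. In Tet-One none of the genes of these lists was called.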

How the data were processed

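RNA-seq libraries of 3 Panc-1 lines, with and without Dox, were analysed. The authors used TopHat and hg19 to align paired reads, filtered genes at more than 0.5 CPM in at least 4 samples, and deposited raw counts per gene. The counting tool's role and strand setting are not given in the sources used here; the submitters' processing notes name HTSeq. The authors also deposited CPM, a normalized signal from a scaled library size: the CPM of Tet-One and Tet-MIST1 matched TMM scaling over their 16 libraries together and those of Tet-PTF1a TMM over its 8 libraries alone. The deposited fold changes, p-values and FDRs of the authors' own comparisons were not used. Between 18 and 20 gene names per line appeared as dates and were not joined across lines.

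Counts were tested with the quasi-likelihood test of edgeR 4.0.16 (R 4.3.3, TMM, robust, genes above 0.5 CPM in at least 4 libraries, Benjamini-Hochberg FDR under 0.05 over all genes tested). Within a line the 8 libraries were fitted. Differences between responses were tested as an interaction over 16 libraries and Control levels over 8, for genes listed in both tables. Intervals are at 95%, and levels per length use the deposited exon length and library totals. Total counts of 17210989 to 43018494 per library set the precision of low genes. Pairs of replicates differed by more than sampling noise in all 36 pairs (chi-square over its degrees of freedom 1.38 to 234). The alternatives were DESeq2 1.42.0, library size, no filter, a replicate block, length and GC trends, all 24 libraries and leaving out each library. Scripts were tested on simulated data with the same spread for every gene and no outlying library. That test does not show how the fits behave with a library such as Tet-One Dox replicate 1. Named genes were the 9 members and the 3 genes most alike to each. From the pathway lists, up to 5 genes higher and 5 lower with the largest change among called genes were named in each line. RECK, SPOCK1, FURIN, COL1A1, COL3A1, CD68 and C10orf55 were named after their values were seen, as was SERPINI1 in Tet-PTF1a. The values of 1 gene of the lists are not reported here. The members and lists were chosen with earlier results of these data known.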

Additional observations from a re-analysis of the deposited data

Results flagged for a closer look

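Among 52 groups of 4 libraries, 3 had a library far from the rest, and chance marks about 1 in 20 groups. In Tet-One Dox, replicate 1 had 3.06 CPM of PLAUR, where the nearest other library had 2.36, and 76.9 CPM of TIMP1, where the nearest had 47.4. In Tet-MIST1 Dox, replicate 4 had 0.527 CPM of PLAT, where the nearest had 0.813, at 18 counts.

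The Dox response differed between lines by the interaction test in 9 cases. Against Tet-One, the log2 response in Tet-PTF1a differed by 1.07 for PLAU, 1.71 for TIMP3, -1.19 for MMP2 and -1.02 for TIMP1. Against Tet-MIST1, it differed by 1.18 for PLAU, 1.98 for TIMP3, -1.46 for MMP2, -0.85 for TIMP1 and -0.27 for MMP14.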

How the results depend on the processing

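Of 449 alternative values of called results, 445 kept direction and call, 4 kept direction only and none turned: MMP2 in Tet-MIST1 without Control replicate 1, 3 or 4, and TIMP2 in Tet-PTF1a with all 24 libraries in 1 fit. Of 628 values of uncalled results, 10 passed the limit and 35 turned, the turned ones with an FDR of at least 0.222. With length and GC trend removed, the members called went from 1 to 2 in Tet-MIST1 where 3898 of 13623 genes were called, and from 0 to 1 in the difference between Tet-MIST1 and Tet-One. With the replicate block too they were 1 and 1. Leaving out 1 library gave 0 to 2 members called in Tet-MIST1, with 1436 to 1983 genes called in the fits with 0 members and 3482 and 3770 in those with 2. The ratio of PLAU between Tet-MIST1 and Tet-One Controls went from 7.30 to 7.59 with library totals. The cause was not tested.

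The log2 values that turned in Tet-One were PLAU at -0.0051 with library size, and MMP2 at 0.022 with length and GC trend removed and 0.021 with the replicate block too. In Tet-MIST1, TIMP1 turned to -0.054 in each of these last fits. Between Tet-PTF1a and Tet-MIST1, PLAUR turned to 0.0067 with library size and 0.025 and 0.032 with length and GC trend removed, without and with the block. Leaving out 1 library gave, in Tet-One, -0.077 to 0.0023 for MMP14, -0.016 to 0.058 for PLAU, -0.0091 to 0.14 for PLAUR, -0.080 to 0.075 for MMP2 and -0.0028 to 0.075 for TIMP2. In Tet-MIST1 it gave -0.18 to 0.095 for PLAT and -0.019 to 0.073 for TIMP3. For the difference between Tet-MIST1 and Tet-One it gave -0.27 to 0.22 for PLAT, -0.030 to 0.070 for TIMP2 and -0.24 to 0.054 for TIMP1. For PLAUR it gave -0.13 to 0.055 for the response of Tet-PTF1a against Tet-MIST1, and -0.0038 to 0.18 between the Controls of Tet-PTF1a and Tet-One.

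Same-numbered libraries had correlations from -0.444 to 0.39, which gave no consistent sign that the numbers pair the samples. With 4 libraries per group, some of them outlying, these correlations cannot exclude a pairing. With the replicate block, members called stayed at 0, 1 and 6 in Tet-One, Tet-MIST1 and Tet-PTF1a and at 0, 4 and 5 in the differences, while calls over all genes went from 2812 to 1463 in Tet-MIST1 and from 232 to 83 between Tet-MIST1 and Tet-One.

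Over all genes, calls in Tet-MIST1 went from 2812 to 1703 with all 24 libraries in 1 fit, and to 1460, 1771 and 1436 without Control replicate 1, 2 and 3. Calls in Tet-PTF1a went from 6775 to 3128 with all 24 libraries, and library size split them into 4392 higher and 2698 lower in place of 3344 and 3431. Between Tet-MIST1 and Tet-One, 232 calls became 499 with DESeq2, 837 with length and GC trend removed, 419 with the block too, 144 to 146 without Tet-MIST1 Control replicate 1, 3 or 4, and 1960 without Tet-One Dox replicate 1. Between Tet-PTF1a and Tet-One, 1738 calls (746 higher and 992 lower) became 2704 with length and GC trend removed and 4146 without Tet-One Dox replicate 1, and library size gave 943 higher and 804 lower. Without that library 1 gene was called in Tet-One.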
